A study of Mus musculus with 24 samples.

Results

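Transcripts of 36 genes of glycolysis and of the response to low oxygen were followed in natural killer (NK) cells sorted from B16F10 tumours. They were taken by symbol from a list of pathway genes, among the 53465 gene identifiers of the count table. The list comprises 4 transporters of glucose and lactate, 13 glycolytic enzymes and 3 regulators of flux. It also has 4 genes of the HIF and prolyl hydroxylase system and 12 genes listed as hypoxia-induced. Ero1lb is in the last group as the paralog of Ero1l, and its own induction by hypoxia is not assumed. All 36 were found in the table, and 35 of them passed the filter on low counts and were tested among 10536 genes. Epas1 did not pass it.

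Glycolysis breaks glucose down to pyruvate in the cytosol, and lactate dehydrogenase turns that pyruvate into lactate, which leaves the cell through monocarboxylate transporters. Hypoxia-inducible factors (HIFs) pair an oxygen-regulated alpha chain, such as that encoded by Hif1a or Epas1, with a constant partner. The prolyl hydroxylases of the Egln family mark the alpha chain for degradation while oxygen is present, so HIF activity is set largely by protein stability, which RNA does not measure. When the alpha chain is stable, the pair binds short hypoxia response elements near genes of glucose uptake, glycolysis, mitophagy, collagen hydroxylation and vessel growth. Lymphocytes also raise glycolysis upon activation, and solid tumours contain poorly oxygenated regions.

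B16F10 is a melanoma line of mouse origin, and RNA came from its tumours 14 days after subcutaneous implantation into the flank of female wild-type B6 mice, with no other allele or agent named for any group. The sort separated mature NK cells, which carry the integrin CD11b, from less mature ones, which carry the receptor CD27, and split each by the activation marker CD69. Each of the 4 populations (CD69- and CD69+ among CD11b+ cells, and CD69- and CD69+ among CD27+ cells) was represented by 6 libraries, every one made from 100 sorted cells by full-length amplification of polyadenylated RNA. Whether the 6 replicates are separate animals is not labelled, and p-values therefore cover the spread between these samples alone, which may be technical.

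The promoters of 5 genes are printed because the results below turn on them: P4ha2 and Adm, which were at 0 counts in CD11b+CD69- libraries, Bnip3 and Ldha, which were higher in CD27+CD69- than in CD11b+CD69- libraries, and Hif1a itself. They are the 250 bases before the RefSeq transcription start on GRCm38.p6, written 5′ to 3′ on the gene's strand, with the core of the hypoxia response element in capitals. The core searched was ACGTG or GCGTG on either strand, so that CACGT and CACGC mark it on the other strand, and CACGTG holds 2 overlapping matches. P4ha2 is on the plus strand (chr11:54100674-54100923), with cores at 107, 78 and 69 bases before the start. Adm is on the plus strand (chr7:110627407-110627656), with cores at 90 and 54 bases. Bnip3 is on the minus strand (chr7:138909507-138909756), with 5 matches, the nearest at 35 bases. Ldha is on the plus strand (chr7:46845554-46845803), with 5 matches, the nearest at 34 bases. Where a gene had more than 1 RefSeq start, the start with the most matches before it was printed. Of the 5 genes this applied to Ldha, whose other start (window chr7:46846832-46847131) had 1 match before it. Hif1a is on the plus strand (chr12:73907617-73907866), with 3 matches, the nearest at 70 bases.
P4ha2: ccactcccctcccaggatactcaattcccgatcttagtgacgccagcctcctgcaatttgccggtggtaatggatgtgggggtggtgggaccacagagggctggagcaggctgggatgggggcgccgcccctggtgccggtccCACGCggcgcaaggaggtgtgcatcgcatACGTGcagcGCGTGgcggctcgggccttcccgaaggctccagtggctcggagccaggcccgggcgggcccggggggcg
Adm: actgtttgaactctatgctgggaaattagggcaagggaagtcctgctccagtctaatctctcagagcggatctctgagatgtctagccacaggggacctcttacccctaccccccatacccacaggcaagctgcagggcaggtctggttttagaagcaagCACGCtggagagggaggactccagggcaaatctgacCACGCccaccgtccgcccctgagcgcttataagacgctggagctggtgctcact
Bnip3: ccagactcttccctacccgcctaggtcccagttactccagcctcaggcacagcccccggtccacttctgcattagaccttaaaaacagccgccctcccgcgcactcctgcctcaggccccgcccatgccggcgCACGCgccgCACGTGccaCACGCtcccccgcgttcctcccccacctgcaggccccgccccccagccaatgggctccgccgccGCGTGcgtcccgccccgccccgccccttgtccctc
Ldha: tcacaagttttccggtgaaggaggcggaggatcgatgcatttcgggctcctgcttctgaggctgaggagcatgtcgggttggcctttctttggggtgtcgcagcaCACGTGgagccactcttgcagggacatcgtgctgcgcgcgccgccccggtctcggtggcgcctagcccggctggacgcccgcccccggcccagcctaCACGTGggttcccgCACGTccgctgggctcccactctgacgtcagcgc
Hif1a: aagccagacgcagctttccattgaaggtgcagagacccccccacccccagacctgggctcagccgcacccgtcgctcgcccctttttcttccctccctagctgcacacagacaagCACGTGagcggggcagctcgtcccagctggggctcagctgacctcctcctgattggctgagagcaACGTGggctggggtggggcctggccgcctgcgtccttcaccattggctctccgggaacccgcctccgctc

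RefSeq promoter windows were matched for 30 of the 36 genes (not for Slc2a3, Bnip3l, Ndrg1, Epas1, Ero1l and Ero1lb). Over 300 bases, from 250 before to 50 after the start, 28 of the 30 genes held at least 1 core, or 93.3%. The same search found it in 69.1% of 8025 tested genes and in 46.7% of all 27025 genes with a window. A gene counted if any of its windows held a core, and the 30 genes had 42 windows. Window number and base composition were not matched, and the genes were listed for these pathways beforehand, so the shares carry no test. Gpi1 and Tpi1 held none. A match is a description of the letters and not a binding site.

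Total counts per library ran from 1213914 to 2671533, and 3 counts, the lowest level treated as measurable, corresponded to between 1.12 and 2.47 CPM, the counts scaled to 1000000 per library. Amplified fragments carried no molecular identifiers, so intervals and floors cover counting error only. All 10 NK cell marker genes were detected in every population, with summed levels from 10188 to 44502 CPM. Every sample carries the cell type label melanoma, whereas the design text names NK populations. The markers matched the latter, which does not exclude RNA of other cells. Summed NK cell markers were lower in CD27+ than in CD11b+ libraries, and CD27+CD69- libraries also held fibroblast transcripts, as given below. Library CD27+CD69- replicate 6 stood apart, with 5898 CPM of melanoma marker transcripts against at most 295 in any other library, so results are given with and without it.

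Levels are TMM-scaled CPM throughout, and per-length levels divide them by the kilobases of annotated exons. Per kilobase, Ldha was the most abundant of the 36 genes in each population, where CD11b+CD69- libraries held 386 ± 24.1 CPM and the CD27+CD69- ones 662 ± 249.7 (SD, n = 6). Aldoa, the aldolase, followed at 277 ± 45.3 and 547 ± 325 (SD, n = 6). Paralogs were used unequally on average. Hk1 exceeded Hk2, both hexokinases that trap glucose in the cell, at 9.28 ± 3.39 against 0.292 ± 0.316 CPM per kilobase in the first population and 9.91 ± 0.985 against 4.18 ± 4.86 in the second (SD, n = 6). The platelet-type phosphofructokinase Pfkp exceeded the liver-type Pfkl, at 60.7 ± 7.39 against 18.9 ± 4.95 and 41.8 ± 5.72 against 28.2 ± 11.5 (SD, n = 6). Single libraries departed from these means. Per kilobase, Hk2 was above Hk1 and Pfkl above Pfkp in CD27+CD69- replicate 6, and Pfkl was slightly above Pfkp in replicate 4. Glucose transporters Slc2a1 and Slc2a3 were close in CD11b+CD69- libraries, at 22.7 ± 12.3 and 18.5 ± 4.70 CPM per kilobase, and far apart in CD27+CD69- libraries, at 43.5 ± 21.5 and 4.44 ± 2.61 (SD, n = 6).

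Among CD69- cells, CD27+ libraries carried more transcript of most of these genes than CD11b+ libraries. Of the 35 genes tested, 18 were higher and 3 lower at an adjusted p under 0.05 by edgeR's quasi-likelihood test, and 14 did not pass. Over all 10536 genes tested, 7.46% were higher and 4.92% lower, or 12.4% in either direction. The median log2 difference was 1.06 over the 35 genes and 0.05 over all genes tested. By role, 8 of 13 glycolytic enzymes, 1 of 4 transporters, 1 of 3 flux regulators, 2 of 3 HIF system genes and 6 of 12 hypoxia-induced genes were higher. The lower genes were Slc2a3, Pfkp and Ero1lb. Without library CD27+CD69- replicate 6, 15 were higher, beside 5.98% of all genes, and 2 lower, beside 3.84%, and the median was 0.71. The genes no longer past the threshold were Slc16a1, Bnip3l, Higd1a and Ero1lb.

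**Figure D1:**
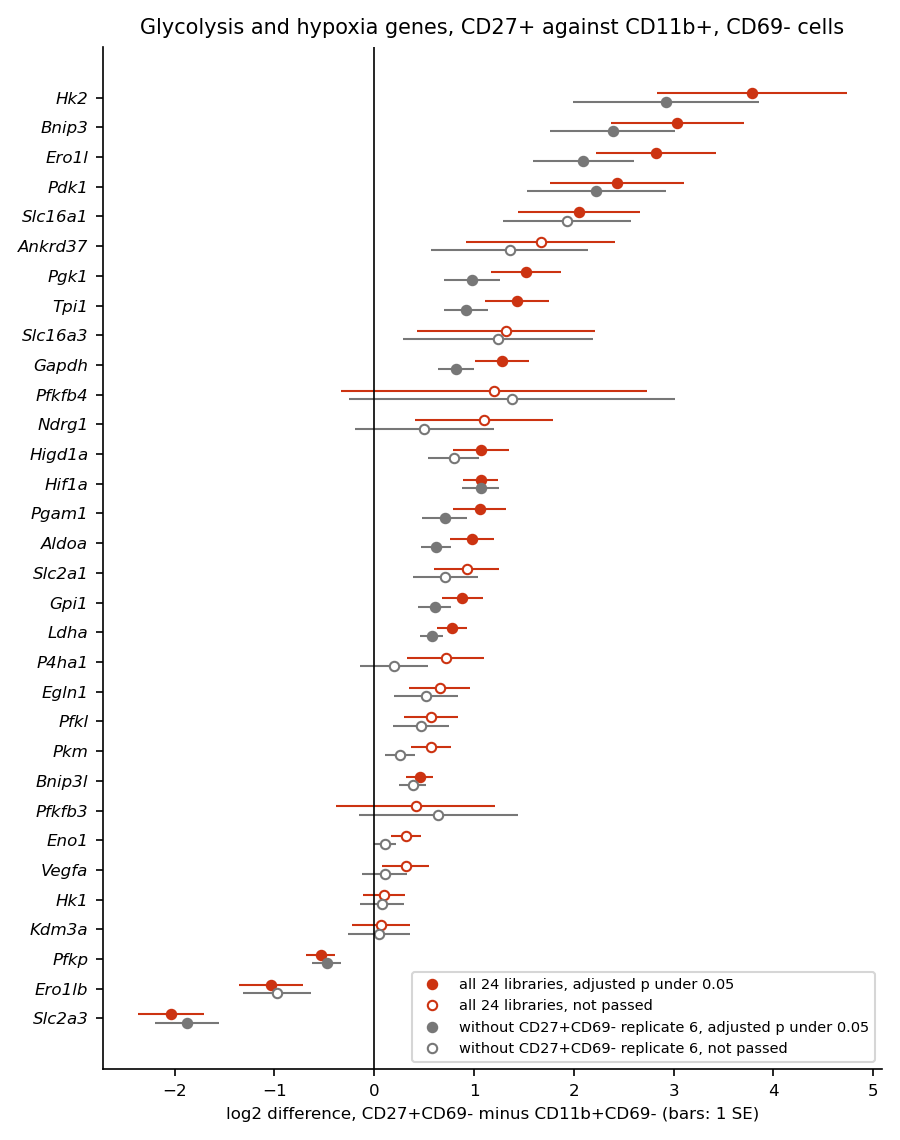
Log2 difference of CD27+CD69- from CD11b+CD69- libraries for 32 genes, with bars of 1 SE; filled points passed an adjusted p under 0.05 and open points did not. Red points use all 24 libraries and grey points leave out CD27+CD69- replicate 6; most grey points lie nearer 0 than the red ones, while Hif1a stays at 1.07 and Slc2a3 moves from -2.03 to -1.87. Adm, P4ha2 and Egln3 are not drawn because their fitted sizes depend on the prior count.

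The 2 glucose transporters differed in opposite directions. Slc2a3, a transporter with high affinity for glucose, had lowest, median and highest levels of 94.7, 120.3 and 180.2 CPM in CD11b+CD69-, 44.7, 104 and 196 in CD11b+CD69+, 11.5, 33.2 and 63.6 in CD27+CD69-, and 49.1, 57.7 and 87.8 in CD27+CD69+ libraries. All CD27+CD69- and all CD27+CD69+ libraries lay below all CD11b+CD69- libraries, and the other pairs of populations overlapped. The log2 difference among CD69- cells was -2.03 (SE 0.33, adjusted p = 8.57e-05). Slc2a1, the widely expressed basal glucose transporter, ran in the same order of populations at 37.6, 71.6 and 154, at 76.6, 101 and 173, at 44.9, 161 and 259.8, and at 67.3, 90.1 and 126 CPM. Every pair of populations overlapped for Slc2a1, whose difference of 0.93 (SE 0.33) had an adjusted p of 0.0623. It passed under DESeq2, with thinned counts and without replicate 3 or 4.

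The lactate transporter Slc16a1 was higher in CD27+CD69- libraries. Its lowest, median and highest levels were 0.492, 5.55 and 38.7 CPM in CD11b+CD69-, 11.1, 21.0 and 50.9 in CD11b+CD69+, 21.4, 36.5 and 90.3 in CD27+CD69-, and 15.7, 31.3 and 44.8 in CD27+CD69+ libraries. All populations overlapped, and CD11b+CD69- replicate 3 was far above its 5 companions. The log2 difference of 2.05 (SE 0.61, adjusted p = 0.0243) did not pass when replicate 1, 2, 4, 5 or 6 was left out, with adjusted p between 0.0533 and 0.0851. Slc16a3, the lactate exporter typical of glycolytic cells, had medians of 3.22, 4.33, 11.0 and 3.01 CPM in the same order and a range from 0 to 26.5 CPM, and its difference of 1.32 (SE 0.90, adjusted p = 0.414) did not pass.

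Hexokinase and the early steps of glycolysis were uneven. Hk2, the inducible hexokinase, had lowest, median and highest levels of 0, 0.902 and 4.43 CPM in CD11b+CD69-, 1.25, 4.00 and 10.5 in CD11b+CD69+, 1.48, 17.3 and 81.6 in CD27+CD69-, and 2.02, 10.7 and 45.7 in CD27+CD69+ libraries. CD27+CD69- replicate 6 held the 81.6 CPM, the other 5 libraries of that population reached at most 24.8, and the populations overlapped. The log2 difference among CD69- cells was 3.78 (SE 0.95, adjusted p = 0.00732), and 2.92 (SE 0.93, adjusted p = 0.0458) without that library. Hk1, the constitutive hexokinase, had medians between 72.7 and 87.0 CPM in the 4 populations and a difference of 0.09 (SE 0.21, adjusted p = 0.856). Pfkp, which commits sugar to glycolysis, went the other way, with 671, 812 and 972 CPM in CD11b+CD69-, 498, 773 and 967 in CD11b+CD69+, 438, 584 and 655 in CD27+CD69-, and 424, 472 and 670.4 in CD27+CD69+ libraries. CD11b+CD69- libraries overlapped neither CD27+ population, and the log2 difference among CD69- cells was -0.54 (SE 0.14, adjusted p = 0.0126). Leaving out replicate 6 of every population gave -0.49 with an adjusted p of 0.057. Pfkp shares 748 exonic bases with Pitrm1 on the opposite strand, and reads of the 2 genes there cannot be told apart.

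Of the enzymes after hexokinase, Gpi1, Aldoa, Tpi1, Gapdh, Pgk1, Pgam1 and Ldha were higher in CD27+CD69- than in CD11b+CD69- libraries, and Pfkl, Eno1 and Pkm did not pass. Gpi1, the isomerase that makes fructose phosphate, had medians of 226 and 361 CPM in CD11b+CD69- and CD27+CD69- libraries, a log2 difference of 0.88 (SE 0.21, adjusted p = 0.00386). Aldoa, which splits fructose bisphosphate, had lowest, median and highest levels of 648, 823 and 986 CPM in CD11b+CD69-, 964, 1217 and 1426 in CD11b+CD69+, 913, 1199 and 3364 in CD27+CD69-, and 1130.5, 1257 and 1318 in CD27+CD69+ libraries. Those of Tpi1, which interconverts the triose phosphates, were 373, 497 and 509, then 521, 624 and 927, then 453, 906 and 3193, then 613, 672 and 802 CPM in the same order. CD27+CD69- libraries overlapped the other populations for both genes, and replicate 6 held the highest value of each. The differences among CD69- cells were 0.98 (SE 0.22, adjusted p = 0.00252) for Aldoa and 1.43 (SE 0.32, adjusted p = 0.00325) for Tpi1. Without replicate 6 of CD27+CD69- they were 0.62 (SE 0.15, adjusted p = 0.00627) and 0.92 (SE 0.22, adjusted p = 0.00694).

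Gapdh, which makes the first high-energy intermediate, had lowest, median and highest levels of 476, 584 and 699 CPM in CD11b+CD69-, 738, 851 and 1166 in CD11b+CD69+, 611, 1018 and 3341 in CD27+CD69-, and 889, 1048 and 1176 in CD27+CD69+ libraries. The 3 populations other than CD11b+CD69- overlapped one another, and CD11b+CD69- overlapped only CD27+CD69-. Pgk1, an ATP-making kinase, ran at 68.8, 80.5 and 129, at 97.5, 124 and 192, at 86.9, 177 and 658, and at 121, 147 and 242 CPM in the same order, with all populations overlapping. Differences among CD69- cells were 1.28 (SE 0.27, adjusted p = 0.00202) for Gapdh and 1.52 (SE 0.35, adjusted p = 0.00342) for Pgk1. Without CD27+CD69- replicate 6, Gapdh gave 0.82 (SE 0.18, adjusted p = 0.00346) and Pgk1 0.98 (SE 0.28, adjusted p = 0.0215). Pgam1, the mutase that follows, had medians of 47.5 and 90.3 CPM in the 2 CD69- populations, with a difference of 1.06 (SE 0.26, adjusted p = 0.00721). Pgam1 gave 0.72 and an adjusted p of 0.076 without replicate 6 of every population.

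Ldha, which reduces pyruvate to lactate, had lowest, median and highest levels of 1166, 1271 and 1411 CPM in CD11b+CD69-, 1235, 1584 and 1861 in CD11b+CD69+, 1394, 1831 and 3637 in CD27+CD69-, and 1404, 1785 and 1865 in CD27+CD69+ libraries. The CD69- populations touched only at their ends, where the lowest CD27+CD69- library was under the highest CD11b+CD69- one. The log2 difference was 0.78 (SE 0.15, adjusted p = 0.00083), and 0.57 (SE 0.12, adjusted p = 0.00155) without CD27+CD69- replicate 6. Eno1, the enolase, and Pkm, the pyruvate kinase, did not pass, with differences of 0.32 (SE 0.15, adjusted p = 0.185) and 0.57 (SE 0.20, adjusted p = 0.0685). Eno1 medians lay between 1045 and 1216 CPM in the 4 populations, while Pkm medians were 618 in CD11b+CD69- and 739 to 818 in the others. Pfkl had a difference of 0.57 (SE 0.27, adjusted p = 0.198).

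**Figure D2:**
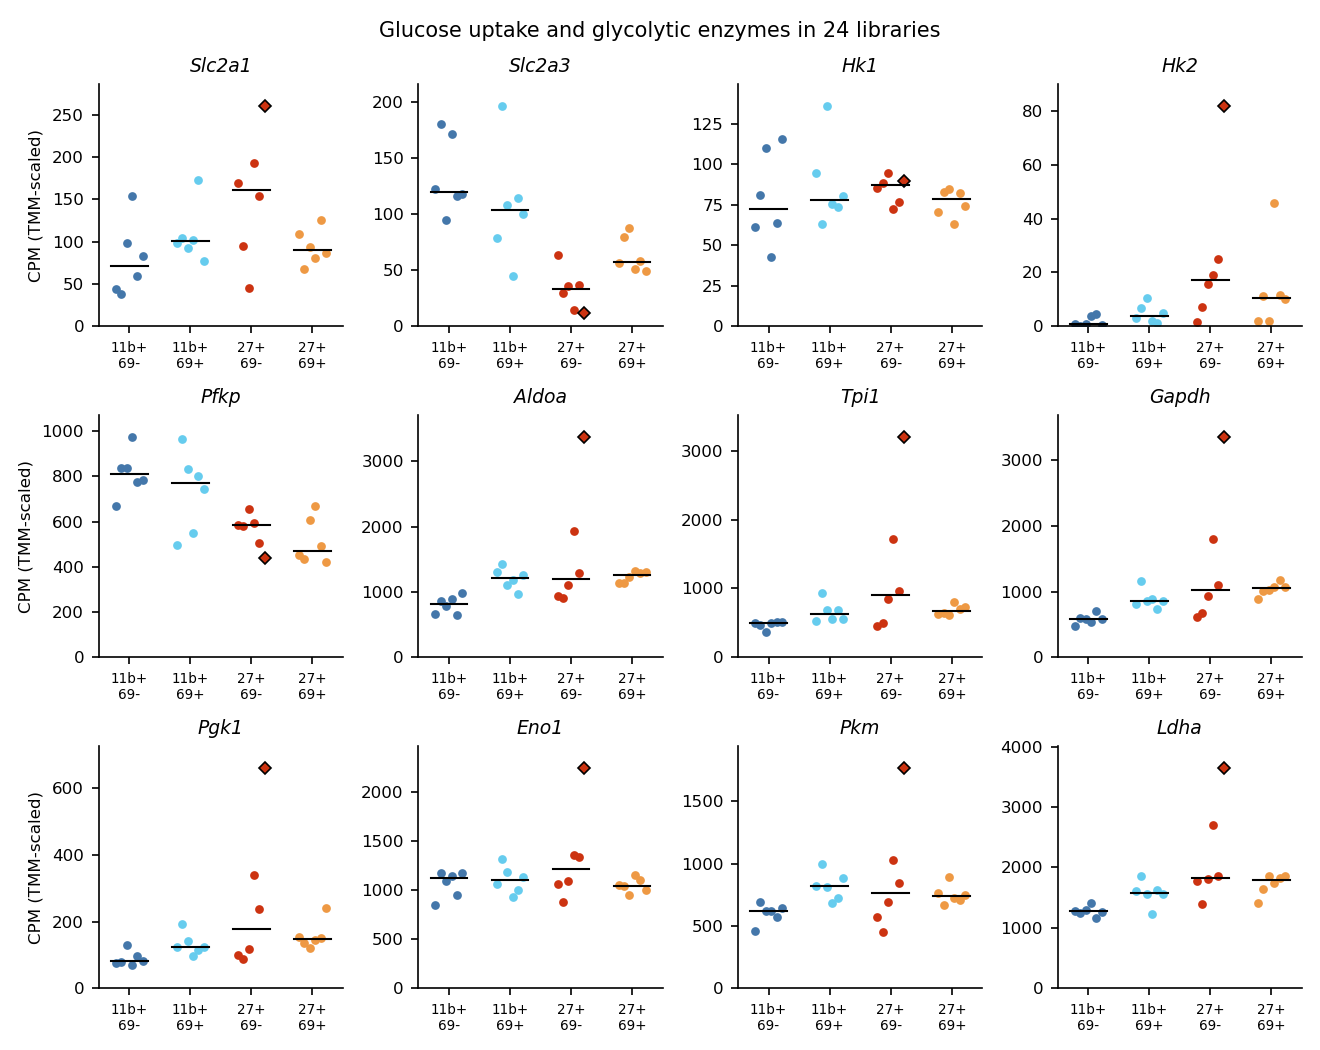
TMM-scaled CPM of 12 transporters and glycolytic enzymes, 1 point per library and 1 black bar per population median; 11b+ and 27+ stand for CD11b+ and CD27+, 69- and 69+ for CD69- and CD69+, and the diamond is CD27+CD69- replicate 6. The diamond is the highest point for Gapdh at 3341 CPM and the lowest for Slc2a3 at 11.5 CPM, and the other CD27+CD69- libraries spread wider than the other populations for Tpi1, Pgk1 and Pkm.

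Of the flux regulators, Pdk1, the kinase that inhibits pyruvate dehydrogenase, was higher in CD27+ than in CD11b+ libraries among CD69- cells. Its lowest, median and highest levels were 0, 10.7 and 22.5 CPM in CD11b+CD69-, 0.480, 19.2 and 55.8 in CD11b+CD69+, 30.5, 51.4 and 98.1 in CD27+CD69-, and 39.7, 50.6 and 69.6 in CD27+CD69+ libraries. Neither CD27+ population overlapped CD11b+CD69-, and both overlapped CD11b+CD69+. The log2 difference among CD69- cells was 2.43 (SE 0.67, adjusted p = 0.0153), and adjusted p rose to 0.0657 and 0.0595 without replicate 1 or 6. Among CD69+ cells the difference of Pdk1 was 1.08 (SE 0.64, adjusted p = 0.594). Pfkfb3 and Pfkfb4, which set the level of the allosteric activator of phosphofructokinase, stood at no more than 19.5 CPM in every library, and neither passed a test in any of the comparisons.

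Hif1a, the oxygen-regulated chain of HIF, was lowest in CD11b+CD69- cells. Its lowest, median and highest levels were 44.3, 63.6 and 80.5 CPM there, 100.2, 125 and 162 in CD11b+CD69+, 95.5, 129 and 169.7 in CD27+CD69-, and 90.2, 117 and 142 in CD27+CD69+ libraries. All 6 CD11b+CD69- libraries lay below all 18 others, which overlapped one another. Among CD69- cells the log2 difference was 1.07 (SE 0.17, adjusted p = 9.27e-05), and it was 1.07 without CD27+CD69- replicate 6 as well. Hif1a (chromosome 12, 73901375 to 73947530, plus strand, GRCm38) shares 478 exonic bases with Gm15283 and Gm49321, which together had 101 counts over all libraries.

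Egln3, a prolyl hydroxylase that is itself a HIF target, was near the limit of measurement in CD11b+CD69- cells. It had 2 counts in all CD11b+CD69- libraries together and lowest, median and highest levels of 3.64, 7.42 and 32.1 CPM in CD27+CD69- libraries. The ratio of its pooled counts, scaled to the total counts of each group, was 85.9, with a counting interval of 23.3 to 717 (95%, exact). Of the 137 counts in CD27+CD69- libraries, replicate 3 held 68, and the interval does not cover spread between libraries. The edgeR adjusted p was 0.00454. Medians were 0.651 CPM in CD11b+CD69+ and 3.44 CPM in CD27+CD69+ libraries, both of which overlapped CD27+CD69-. Egln1, the main oxygen sensor of this family, had medians from 31.5 to 54.2 CPM and a difference of 0.66 (SE 0.31, adjusted p = 0.188). Epas1, the other alpha chain, had 4 and 2 counts over the CD69- and CD69+ libraries of CD11b+ cells and 30 and 10 over those of CD27+ cells, too few to be tested.

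Among the hypoxia-induced genes, P4ha2 and Adm were highest in CD27+CD69- libraries and at or near 0 in CD11b+ libraries. P4ha2, a prolyl hydroxylase subunit that modifies collagen, had lowest, median and highest levels of 10.5, 64.1 and 94.8 CPM there, 0 counts in all 6 CD11b+CD69- libraries, a highest level of 2.17 CPM in CD11b+CD69+ and of 14.0 CPM in CD27+CD69+ libraries. CD27+CD69- did not overlap either CD11b+ population and overlapped CD27+CD69+ at its lowest library. By counts pooled over each group, with 3 counts for the whole group as the floor, P4ha2 was at least 236-fold higher in CD27+CD69- than in CD11b+CD69- libraries. The edgeR adjusted p was 0.000169. Adm, which encodes the vasodilator peptide adrenomedullin, had 1191 counts over the CD27+CD69- libraries, 22 over the CD27+CD69+ libraries and 0 over the 12 CD11b+ libraries. Its CD27+CD69- levels were 0, 69.6, 230.2, 65.7, 18.4 and 339 CPM in replicates 1 to 6, so that replicate 1 had none. By pooled counts with the same floor, Adm was at least 498-fold higher in CD27+CD69- than in CD11b+CD69- libraries. The edgeR adjusted p was 0.0026, although limma-voom gave an adjusted p of 0.111. Both folds rest on pooled reads and do not cover the spread between libraries. CD27+CD69- libraries also held fibroblast transcripts, and the part of that RNA in both folds was not tested.

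Bnip3, which marks mitochondria for removal, had lowest, median and highest levels of 3.28, 13.1 and 19.3 CPM in CD11b+CD69-, 12.0, 19.8 and 45.6 in CD11b+CD69+, 11.4, 47.3 and 272 in CD27+CD69-, and 5.61, 23.1 and 66.9 in CD27+CD69+ libraries. Ero1l, the oxidase that drives disulfide formation in the endoplasmic reticulum, ran at 31.2, 37.5 and 75.3, at 21.3, 67.7 and 105, at 35.5, 115 and 896, and at 46.3, 74.8 and 117 CPM in the same order. In both, CD27+CD69- replicates 6 and 4 were the highest and 2 was the lowest of that population, and all populations overlapped. The differences among CD69- cells were 3.04 (SE 0.66, adjusted p = 0.00224) for Bnip3 and 2.82 (SE 0.60, adjusted p = 0.00226) for Ero1l. Without CD27+CD69- replicate 6 they were 2.39 (SE 0.63, adjusted p = 0.0129) and 2.10 (SE 0.50, adjusted p = 0.00624). By limma-voom their adjusted p were 0.127 and 0.121.

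Bnip3l, the related mitophagy receptor, and Higd1a, a mitochondrial survival protein, differed less. Bnip3l medians were 140.5 and 190.0 CPM in CD11b+CD69- and CD27+CD69- libraries, a log2 difference of 0.46 (SE 0.13, adjusted p = 0.0231). Higd1a medians were 114 and 182 CPM, a difference of 1.07 (SE 0.28, adjusted p = 0.0101). Neither passed without CD27+CD69- replicate 6, with adjusted p of 0.0717 for Bnip3l and 0.0514 for Higd1a. Of the others, Vegfa, the vessel growth factor, had medians of 103 to 147 CPM and a difference of 0.32 (SE 0.24, adjusted p = 0.476). P4ha1, Ankrd37, Ndrg1 and Kdm3a had differences between 0.07 and 1.67 that did not pass.

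**Figure D3:**
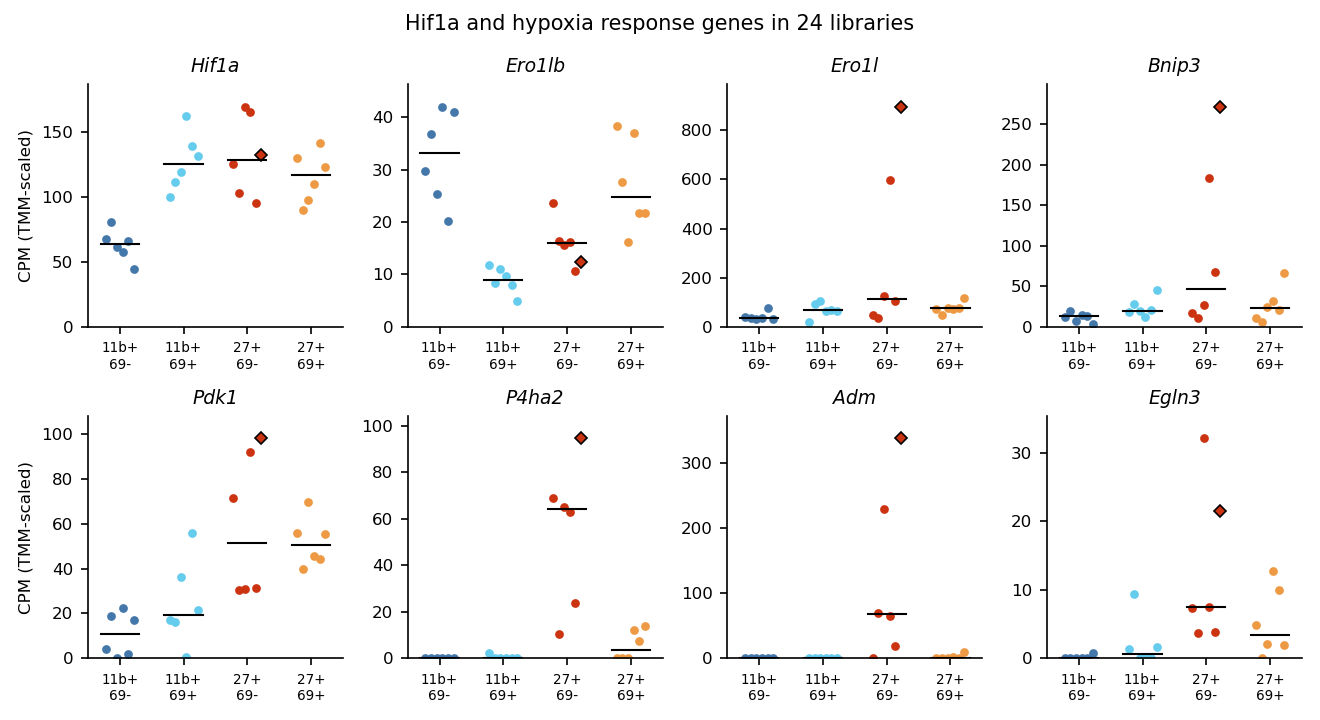
TMM-scaled CPM of Hif1a and 7 genes listed with the hypoxia response, among them Ero1lb, with points, bars, labels and diamond as in the plot of glycolytic genes. Hif1a is lowest in CD11b+CD69-, Ero1lb is lowest in CD11b+CD69+ at 4.97 to 11.7 CPM, and P4ha2 and Adm reach at most 14.0 and 9.15 CPM outside CD27+CD69-.

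Within CD11b+ cells, CD69+ libraries carried more Hif1a and less Ero1lb than CD69- libraries, and no other gene of the 35 passed. The count was 1 higher, beside 1.64% of all genes tested, and 1 lower, beside 1.1%. The log2 difference of Hif1a was 1.02 (SE 0.17, adjusted p = 0.000739), with all 6 CD69+ libraries above all 6 CD69- libraries. Ero1lb, the second oxidase of the endoplasmic reticulum, is known as the form of secretory tissue. Its lowest, median and highest levels were 20.2, 33.2 and 42.0 CPM in CD11b+CD69-, 4.97, 8.96 and 11.7 in CD11b+CD69+, 10.7, 15.9 and 23.7 in CD27+CD69-, and 16.2, 24.7 and 38.3 in CD27+CD69+ libraries. CD11b+CD69+ libraries did not overlap CD11b+CD69- or CD27+CD69+ ones, and the log2 difference within CD11b+ cells was -1.86 (SE 0.33, adjusted p = 0.0011). Both genes passed under every alternative tried.

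The other genes leaned upward without passing. Differences were above 0 for 30 of 35, beside 5235 of all 10536, with a median of 0.45 on the log2 scale against 0.00 over all genes tested. Gapdh gave 0.61 (SE 0.27, adjusted p = 0.299), although its 6 CD69+ libraries lay above its 6 CD69- libraries. Aldoa gave 0.58 (SE 0.22, adjusted p = 0.175), Pkm 0.45 (SE 0.20, adjusted p = 0.311) and Ldha 0.30 (SE 0.15, adjusted p = 0.387). A fit to the CD11b+ libraries alone, in which CD27+ libraries did not add to the estimate of spread, called 6 of these genes (Hif1a, Ero1lb, Gapdh, Aldoa, Pkm and Ldha), beside 4.11% of the 9086 genes it tested.

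Within CD27+ cells the sign was mostly the other way and 1 gene passed. None was higher, beside 0.55% of all genes tested, and 1 was lower, beside 1.3%. The gene was Adm, with a fitted log2 difference of -6.04 (SE 1.42, adjusted p = 0.0488) that did not pass in 12 of 16 alternatives, among them leaving out replicate 2, 3, 4 or 5. Without replicate 6 of every population Adm had too few counts to be tested. Differences were above 0 for 3 of 35 genes, beside 5110 of all 10536, and the median was -0.51 against -0.01. An unadjusted p under 0.05 was found for 15 of 35 genes, beside 1154 of all 10536. Ero1l gave -1.95 (SE 0.58, adjusted p = 0.0923) and Kdm3a, a HIF-induced histone demethylase, gave -0.96 (SE 0.29, adjusted p = 0.1). Slc2a3 gave 0.97 (SE 0.33, adjusted p = 0.146), with all 6 CD69+ libraries above the CD69- median. Hif1a gave -0.19 (SE 0.17, adjusted p = 0.842). Without CD27+CD69- replicate 6 the median was -0.19 and no gene passed, beside 1.13% of all genes.

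Among CD69+ cells, 1 gene passed between CD27+ and CD11b+ libraries. Ero1lb was higher in CD27+ libraries by 1.60 (SE 0.33, adjusted p = 0.00553), with all 6 above all 6 CD11b+ ones. No other gene was higher, beside 0.987% of all genes tested, and none was lower, beside 0.911%. With no low-count filter and without replicate 4 of every population, adjusted p for Ero1lb was 0.0556 and 0.0542. The median difference was 0.13, against 0.02 over all genes. Pfkp gave -0.51 (SE 0.14, adjusted p = 0.0669) and Slc2a3 -0.74 (SE 0.32, adjusted p = 0.327), while Hif1a gave -0.14 (SE 0.17, adjusted p = 0.876).

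For Hif1a and Ero1lb, the effect of CD69 status was not the same in CD27+ as in CD11b+ cells. The difference of differences was -1.20 (SE 0.24, adjusted p = 0.0153) for Hif1a, the 1 gene lower beside 0.342% of all genes, and 2.63 (SE 0.46, adjusted p = 0.00452) for Ero1lb, the 1 gene higher beside 0.237%. Hif1a did not pass without replicate 3, 4 or 6, with adjusted p of 0.107, 0.169 and 0.0589, and Ero1lb did not pass without replicate 2 or 4, with 0.0516 and 0.0639. For the glycolytic enzymes no difference of differences passed, the median of the 13 being -0.69. The 4 comparisons of 2 populations share libraries with one another, so their values stand side by side and do not support one another.

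Transcripts of other cell types moved with the CD27+CD69- population. The 10 fibroblast genes summed to between 563 and 12003 CPM there with none at 0, while all 10 were at 0 in CD11b+CD69+ libraries. In CD11b+CD69- libraries 6 of the 10 were at 0 (Dcn, Lum, Pdgfra, Pdgfrb, Fn1 and Col6a1) and the sum was at most 8.02 CPM, and in CD27+CD69+ libraries 6 were at 0 (Col1a1, Col1a2, Dcn, Lum, Pdgfra and Pdgfrb) and the sum was at most 310.1 CPM. The 8 melanoma genes ran from 1.37 to 5898 CPM in CD27+CD69- libraries with none at 0, against at most 4.10, 28.2 and 96.3 CPM in CD11b+CD69-, CD11b+CD69+ and CD27+CD69+ libraries, where Tyr was at 0 in the first and the last. The 10 macrophage genes ran from 22.7 to 302 CPM in CD27+CD69- libraries, with C1qb, C1qc and Mrc1 at 0, and from 8.22 to 56.9 over the other 18. Only 3 of the 10 could be tested. Among CD69- cells Apoe alone of the 3 was higher in CD27+ libraries, beside 7.46% of all genes. It differed by 4.08 (SE 1.19, edgeR adjusted p = 0.0221), and the lowest of the 3 was at -0.44. How far Apoe carries the macrophage sum was not tested. Endothelial genes reached 226 CPM in CD27+CD69- and 139 CPM in the other libraries, and neutrophil genes reached 1.02 CPM.

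Lymphocyte markers differed as well. Among CD69- cells all 10 NK cell markers were lower in CD27+ than in CD11b+ libraries, beside 4.92% of all genes tested. Of the T cell markers 6 of 7 tested were higher, beside 7.46%. Summed NK cell markers ran from 10188 to 17720.1 CPM in CD27+CD69- and from 37501 to 44502 CPM in CD11b+CD69- libraries. Summed T cell markers ran from 1052 to 2669 and from 872 to 1222 CPM. Single T cell markers differed more than the sum. Over the 7 tested, the fitted log2 difference ran from 0.14 to 9.34, the latter for Cd3e, with a median of 4.78. Among CD69+ cells 6 of 10 NK cell markers were lower, beside 0.911% of all genes tested. There 6 of 7 T cell markers were higher, beside 0.987%, and the fitted log2 differences of the 7 ran from 0.07 to 7.84 with a median of 3.80. NK sums were 14460.2 to 17959 CPM in CD27+CD69+ and 28422 to 36312 CPM in CD11b+CD69+ libraries. In bulk libraries of this kind fewer cells of a type and less RNA per cell cannot be told apart.

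Collagen transcripts, the sum of Col1a1, Col1a2 and Col3a1, served as a measure of stromal RNA. They stood at 1383, 3805, 2793, 682, 0 and 2111 CPM in CD27+CD69- replicates 1 to 6 and at no more than 8.02 CPM in the other 18 libraries, so that the covariate nearly equals that population. None of the 35 genes had a slope on collagen within populations that passed edgeR's test, beside 0.0475% of all genes in either direction. By edgeR none had an unadjusted p under 0.05, and DESeq2 and limma-voom called none. The same edgeR slope passed for only 2 of the 5 fibroblast genes tested, which include collagens of the sum itself. A slope that did not pass therefore cannot show that a gene does not follow stromal RNA. With collagen as a covariate, the comparison among CD69- cells called P4ha2 alone of the 35, beside 3.18% of all genes. Hif1a then gave 0.76 (SE 0.28, adjusted p = 0.185) and Slc2a3 -1.93 with an adjusted p of 0.0761. Replicate 5 had no count of these 3 collagens but 563 CPM of the 10 fibroblast genes. In it, P4ha2 stood at 24.0 CPM, Adm at 18.4, Hif1a at 95.5 and Slc2a3 at 37.2 CPM.

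Within the CD27+CD69- population the libraries with the most glycolytic enzyme transcript also had the highest sums of melanoma and macrophage markers. Summed over the 13 enzymes, replicates 1 to 6 stood at 6653, 6006, 7919, 12434, 8888 and 20047 CPM. Melanoma transcripts stood at 38.0, 1.37, 8.51, 295, 174 and 5898 CPM in the same libraries, with the 3 highest libraries in the same order as for the enzymes. Macrophage transcripts had the same order, at 302, 86.0 and 62.9 CPM in replicates 6, 4 and 5, with replicate 2 at 62.8 CPM. Replicate 2, which had the most collagen, was the lowest for the enzymes. It was the lowest of the 6 for 18 of the 35 genes, and replicate 6 the highest for 22. These ranks rest on 6 libraries that share a population and carry no test.

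**Figure D4:**
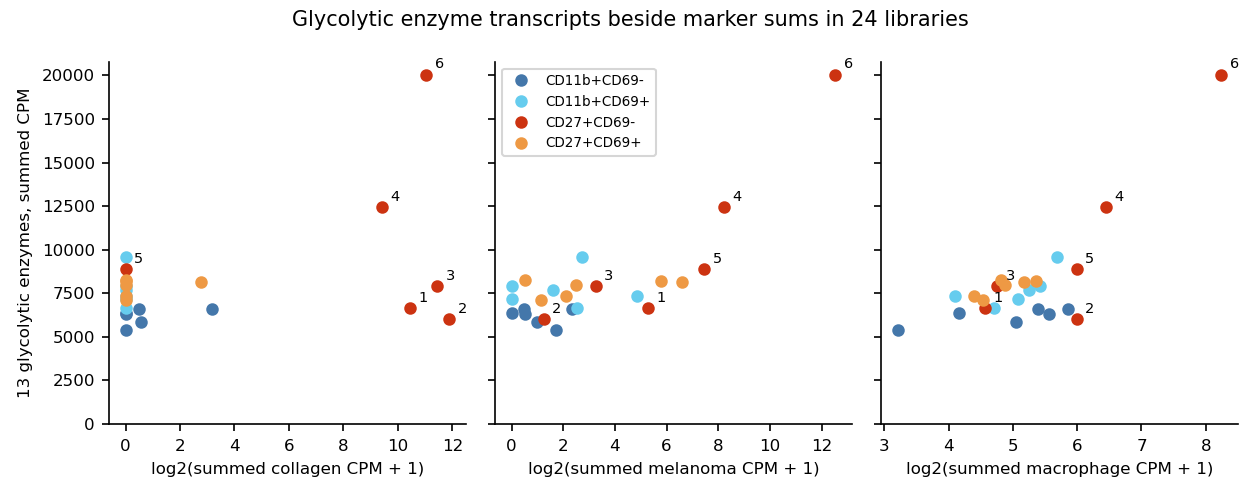
Summed CPM of the 13 glycolytic enzymes in 24 libraries against the summed collagen, melanoma and macrophage markers, each as log2 of CPM plus 1, with CD27+CD69- libraries labelled by replicate. Replicates 4, 5 and 6 are the highest of that population on the vertical axis and on the melanoma and macrophage axes, with replicate 2 close to 5 on the last, while on the collagen axis replicate 5 is at 0 and replicate 2 is farthest right.

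A slope on the log2 melanoma sum within populations, added after the data were seen, passed for 8 of the 35 genes, all upward, beside 0.389% of all genes in that direction. They were Aldoa, Pgk1, Gapdh, Tpi1, Pkm, Ldha, Higd1a and Bnip3, with slopes from 0.08 for Ldha to 0.33 for Bnip3 per unit of that log2 sum. Without CD27+CD69- replicate 6 none of them passed, beside 0.0373% of all genes. The slope of Hif1a was -0.01 (SE 0.03, adjusted p = 0.966). With melanoma transcripts as a covariate, 4 genes were higher and 1 lower in CD27+CD69- than in CD11b+CD69- cells, beside 3.76% and 1.8% of all genes. The 4 were Hif1a at 1.14 (SE 0.22, adjusted p = 0.00153), P4ha2, Adm and Egln3, and the 1 was Slc2a3 at -1.50 (SE 0.40, adjusted p = 0.0234). Gapdh then gave 0.33 (adjusted p = 0.626), Pgk1 0.17 (adjusted p = 0.903) and Ldha 0.30 (adjusted p = 0.341). With macrophage transcripts as a covariate Ldha (0.51, adjusted p = 0.0188) and Pfkp (-0.59, adjusted p = 0.0146) passed beside those 5, where 8.43% of all genes did. The part of the other cell types' RNA in the remaining differences was not tested.

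Further genes of the same pathways were counted in the same comparison among CD69- cells. Of 16 other glycolysis genes tested, 3 were higher in CD27+ libraries and none lower, where 7.46% and 4.92% of all genes were. They were Ldhb, the lactate dehydrogenase chain of oxidative tissue, Pgm2, a phosphoglucomutase, at 1.29 (SE 0.30, adjusted p = 0.00403), and Aldoc, an aldolase best known from brain. None of 8 pentose phosphate genes and none of 11 genes of pyruvate entry passed, with 0 and 1 at an unadjusted p under 0.05, beside 2501 of all 10536 genes. Of 12 other HIF pathway genes, Ep300, a coactivator, was lower by -1.15 (SE 0.30, adjusted p = 0.00897). Of 21 other hypoxia targets 5 were higher, among them Car9, Fam162a and Mif, and 1 lower. Mif, a secreted cytokine, differed by 1.40 (SE 0.25, adjusted p = 0.000225), and Fam162a, a mitochondrial protein, by 1.77 (SE 0.39, adjusted p = 0.00219). The lower gene was Bhlhe40, a transcription repressor, at -1.04 (SE 0.15, adjusted p = 2.08e-05).

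In the other comparisons of populations at most 1 gene of a list passed in a given direction. Within CD11b+ cells 1 of 16 other glycolysis genes and 1 of 21 other hypoxia targets were higher, beside 1.64% of all genes. Mif at 0.90 (SE 0.24, adjusted p = 0.0425) and Slc2a6, a lysosomal hexose transporter, at 2.05 (SE 0.52, adjusted p = 0.0291) were higher in CD69+ than in CD69- libraries of CD11b+ cells. Cited2, a competitor of HIF for its coactivators, was lower in CD69+ libraries of CD27+ cells by -1.13 (SE 0.23, adjusted p = 0.00483). It was 1 of 12 other HIF pathway genes, beside 1.3% of all genes lower. Among CD69+ cells Rora, a nuclear receptor, was higher in CD27+ libraries by 1.61 (SE 0.31, adjusted p = 0.00327) and Bhlhe40 lower by -0.70 (SE 0.15, adjusted p = 0.00771). Each was 1 of 21 other hypoxia targets, beside 0.987% of all genes higher and 0.911% lower.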

How the data were processed

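RNA was measured by sequencing in 24 libraries, 6 of each of 4 populations. The table the authors deposited holds raw read counts by Ensembl identifier, 1 column per library and not normalized. Per the submitters' processing notes the build was GRCm38 and HTSeq and Picard were used. Not given in the sources used here: aligner, annotation release, strand setting. The amplification kit keeps no strand, so reads of overlapping genes on opposite strands cannot be separated, and reads from near-identical pseudogenes of enzymes such as Gapdh, Ldha or Pgk1 may be counted with either copy. The table held 53471 entries, or 53465 identifiers without repeats. Entries with no symbol held 0.174% of counts. Aldoa stood on 2 identifiers and the expressed one was used.

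Counts were fitted with edgeR 4.0.16 (R 4.3.3) by the quasi-likelihood test, with TMM scaling (factors 0.958 to 1.06), a filter at a minimum count of 10, which left 10536 genes, and 4 group means over all 24 libraries. Benjamini-Hochberg adjustment covered every gene in the fit, and an adjusted p under 0.05 passed. Slopes on collagen and melanoma transcripts were added to the same model as log2 of summed CPM plus 1. Alternatives were DESeq2 1.42.0, limma-voom (limma 3.58.1), DESeq2 size factors, no filter, the compared populations alone, the replicate number as a block, each replicate left out, marker covariates and counts thinned to 1213914 per library. Runs without CD27+CD69- replicate 6, or for the collagen slope without replicate 5, and the melanoma slope were chosen after seeing the data. The tests were tested on simulated data with known changes. The genes, the lists of further pathway and marker genes and the comparisons were chosen with earlier results of these data known. Values per library are given for genes past the threshold and for genes that show each role, the rest by range and count. Of further pathway genes, up to 4 with the smallest p per list and comparison have values. Exon lengths, gene positions and overlaps came from GENCODE M21 on GRCm38, and promoters from RefSeq on GRCm38.p6. In 28 of the 30 matched genes the first 50 bases after the start lie in a GENCODE transcript of the same gene.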

Additional observations from a re-analysis of the deposited data

Results flagged for a closer look

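Within a population of 6 libraries, 15 values of the genes described stood far from the other 5, out of 108 groups of 6 examined, where chance alone gives about 1 in 20. CD27+CD69- replicate 6 accounted for 3 of them, Hk2 at 81.6 CPM against a median of 17.3, Pgam1 at 201 CPM against 90.3 and Eno1 at 2236 CPM against 1216. In CD27+CD69+ libraries, Hk2 stood at 45.7 CPM in replicate 4, and Pgk1 at 242 and Adm at 9.15 CPM in replicate 6. In CD11b+CD69- libraries, Slc16a1 at 38.7 and Tpi1 at 373 CPM stood out in replicate 3, Ero1l at 75.3 CPM in replicate 5, and Slc16a3 at 15.2 and Egln3 at 0.820 CPM in replicate 6. Among these, Tpi1 was the low one. In CD11b+CD69+ libraries, P4ha2 at 2.17 CPM stood out in replicate 1, Gapdh at 1166 and Egln3 at 9.42 CPM in replicate 2, and Slc2a1 at 173 CPM in replicate 5. The values of Egln3 in CD11b+CD69- and P4ha2 in CD11b+CD69+ libraries come from 1 library with counts among 5 with none.

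For 2 genes a test of the difference itself found that CD69+ and CD69- libraries differed otherwise in CD27+ than in CD11b+ cells. The difference was -1.20 (SE 0.24) for Hif1a and 2.63 (SE 0.46) for Ero1lb on the log2 scale, with edgeR adjusted p of 0.0153 and 0.00452.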

How the results depend on the processing

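Of the 35 genes, the 2 past the threshold within CD11b+ cells became 6 in a fit to the compared populations alone and 2 to 3 when 1 replicate was left out. Within CD27+ cells, the 1, Adm, became 2 other genes under DESeq2 (Ero1l and Kdm3a), 1 other under limma-voom (P4ha2) and 0 with no filter, with the compared populations alone and with the collagen, melanoma or macrophage covariate, 0 without CD27+CD69- replicate 6, and 0 to 1 with 1 replicate left out, 0 for each of replicates 2 to 6. For CD27+ against CD11b+ among CD69- cells, the 21 became 1, 5 and 7 with the collagen, melanoma and macrophage covariates and 12 to 20 with 1 replicate left out, 12 being without replicate 6, while limma-voom gave 15 and DESeq2 23. Over all genes the same comparison called 1304, and 335, 586 and 888 with those covariates. Among CD69+ cells the 1 became 2 under DESeq2 and with thinned counts and 0 with no filter, and stayed at 1 with any replicate left out, although without replicate 4 Ero1lb was not that gene. The difference of differences fell from 2 to 0 with the collagen covariate and ran from 0 to 2 with 1 replicate left out, 0 without replicate 4 and 1 without replicate 2, 3 or 6. The 8 slopes on melanoma transcripts became 0 with the replicate block, 0 with the macrophage covariate and 0 to 8 with 1 replicate left out, 1 without replicate 2, 2 without replicate 3 and 0 without replicate 6 or without its CD27+CD69- library alone. No slope on collagen passed under any alternative. The causes were not tested. Calls over all genes within CD27+ cells ran from 18 with the collagen covariate to 448 under DESeq2, against 195.

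Of 639 values of single genes under the alternatives, 478 kept their direction and their side of the threshold, 156 no longer passed, 4 passed newly (all Slc2a1 among CD69- cells) and 1 changed sign. That was Hif1a within CD27+ cells, at -0.19 and at 0.12 with the collagen covariate. P4ha2 among CD69- cells passed under every alternative tried.

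The labels do not say whether a replicate number pairs libraries between populations, and the main fit used no pairing. Deviations of same-numbered libraries correlated between -0.029 and 0.207, with 1 of 36 pairs over 0.1, and 4 of 24 libraries correlated best with their own number. The pair over 0.1 was replicate 6 of CD27+CD69- and CD27+CD69+. Replicates 6 and 4 held the most melanoma marker transcript in CD27+CD69- libraries, at 5898 and 295 CPM. The same numbers led in CD27+CD69+ libraries, at 96.3 and 54.5 CPM. Low correlations cannot show whether the libraries are paired. With the replicate block, 21 of the 35 genes passed among CD69- cells, the same 21 as without it, and the other counts changed only for the melanoma slope. Genes with a few counts per library, such as Egln3, Pfkfb4 and Epas1, are limited by depth.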
